A study of Mus musculus with 7 samples.

Results

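The genes described here are 9 markers of lymphocytes, Ptprc, Ikzf1, Runx3, Cd3e, Cd8a, Cd79a, Cd79b, Pax5 and Nkg7, as they appear in the accessible chromatin of whole mouse liver. Their regions were all consensus ATAC-seq regions that overlapped a gene's body or the 10 kb on either side of it (GRCm38, GENCODE M21), which gave 8 of the 55680 regions counted. Of the 9 genes, 5 had at least 1 such region, 4 had none, and 1, Ikzf1, had a region at its own promoter (TSS ± 200 bp). ATAC-seq, in which a transposase inserts adapters into exposed DNA, had been applied to liver tissue of male C57BL/6N mice, with 3 libraries from young animals (3 months) and 4 from aged animals (18 months). No other treatment or allele is named for either age. The 4 aged libraries came from 3 animals, 1 of which gave 2 libraries from different lobules, and the labels do not say which 2. P-values here therefore measure the spread between libraries, of which 2 aged ones share an animal.

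Lymphocytes are a minor population of the liver, where T cells, NK cells and B cells lie in the sinusoids among far more numerous hepatocytes. Each lineage is known by its receptor and by the transcription factors that keep its genes open. Ptprc (CD45), a tyrosine phosphatase, and Ikzf1 (Ikaros), a zinc-finger factor, are used by nearly all lymphocytes. Cd3e is a chain of the T cell receptor complex, Cd8a a coreceptor of cytotoxic T cells, and Runx3 a factor of cytotoxic T and NK cells. Cd79a and Cd79b form the signalling pair of the B cell receptor, and Pax5 is the factor that commits cells to the B lineage. Nkg7 is a granule membrane protein of cytotoxic cells. In bulk tissue, fewer cells of a type and a less accessible region in each cell cannot be told apart.

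The promoters show how the genes differ in base composition. RefSeq promoters (GRCm38.p6, 250 bases before to 50 after the start) were matched for 8 of the 9 genes, all but Cd79b. Ptprc, Runx3 and Ikzf1 have a second entry each, so that there were 11 in all, of which 1 overlapped a consensus region. The entry nearest the annotated start of 6 genes is given from 5′ to 3′ on the strand of the gene, chosen to set the gene with a promoter region, Ikzf1, beside 5 without one. Capitals mark each CpG.
Ikzf1 (chr11:11685675-11685974, plus strand): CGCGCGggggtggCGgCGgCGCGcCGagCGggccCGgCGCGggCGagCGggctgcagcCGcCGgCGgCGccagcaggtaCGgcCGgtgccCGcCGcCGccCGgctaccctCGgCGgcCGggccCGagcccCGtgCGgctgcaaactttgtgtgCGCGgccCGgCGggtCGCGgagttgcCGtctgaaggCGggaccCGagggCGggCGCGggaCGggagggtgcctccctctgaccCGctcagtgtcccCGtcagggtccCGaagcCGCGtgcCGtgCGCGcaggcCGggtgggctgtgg
Pax5 (chr4:44710645-44710944, minus strand): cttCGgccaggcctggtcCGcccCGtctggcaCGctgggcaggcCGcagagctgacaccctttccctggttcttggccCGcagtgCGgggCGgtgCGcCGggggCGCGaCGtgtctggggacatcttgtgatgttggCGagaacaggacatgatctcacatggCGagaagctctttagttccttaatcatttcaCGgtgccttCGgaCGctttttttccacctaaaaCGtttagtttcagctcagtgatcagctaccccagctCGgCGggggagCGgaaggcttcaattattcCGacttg
Cd3e (chr9:45009562-45009861, minus strand): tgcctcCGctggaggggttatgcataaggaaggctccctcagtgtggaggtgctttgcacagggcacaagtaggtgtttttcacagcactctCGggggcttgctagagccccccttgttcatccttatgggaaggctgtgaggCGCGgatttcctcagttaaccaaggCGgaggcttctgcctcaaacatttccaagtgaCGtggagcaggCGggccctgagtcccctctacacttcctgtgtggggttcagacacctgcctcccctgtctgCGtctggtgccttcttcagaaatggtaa
Cd8a (chr6:71373177-71373476, plus strand): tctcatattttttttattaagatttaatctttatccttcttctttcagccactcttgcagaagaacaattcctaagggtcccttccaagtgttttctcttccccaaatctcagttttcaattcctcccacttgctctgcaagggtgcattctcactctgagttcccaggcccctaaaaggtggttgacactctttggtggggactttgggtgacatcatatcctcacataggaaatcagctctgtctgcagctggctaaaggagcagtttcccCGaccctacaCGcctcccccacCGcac
Cd79a (chr7:24897247-24897546, plus strand): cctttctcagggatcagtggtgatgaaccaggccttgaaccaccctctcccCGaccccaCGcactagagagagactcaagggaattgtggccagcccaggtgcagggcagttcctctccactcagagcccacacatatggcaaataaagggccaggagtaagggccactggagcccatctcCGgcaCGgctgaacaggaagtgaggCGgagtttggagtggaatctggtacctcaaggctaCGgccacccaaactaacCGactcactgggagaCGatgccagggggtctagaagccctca
Nkg7 (chr7:43436888-43437187, plus strand): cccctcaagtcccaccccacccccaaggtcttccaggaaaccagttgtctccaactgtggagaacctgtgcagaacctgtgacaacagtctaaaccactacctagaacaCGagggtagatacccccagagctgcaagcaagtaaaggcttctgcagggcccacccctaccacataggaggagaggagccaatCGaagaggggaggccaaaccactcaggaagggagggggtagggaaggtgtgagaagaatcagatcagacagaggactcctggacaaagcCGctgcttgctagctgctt

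This Ikzf1 promoter held 52 CpG, or 1.06 of the number its base composition predicts, at a GC content of 81.3%. Pax5 had 23 CpG, an observed over expected value of 0.882. The other entries nearest the start were poorer in CpG, at 0.481 in Ptprc, 0.333 in Cd3e, 0.314 in Cd79a, 0.264 in Runx3, 0.198 in Cd8a and 0.129 in Nkg7. The second entries had 1.01 in Runx3, 0.173 in Ptprc and 0.111 in Ikzf1, and none of these 3 overlapped a region. Over all 32817 RefSeq promoters, 43.0% overlapped a consensus region, and this share followed the CpG content. It was 9.77% of promoters below 0.2, 19.5% between 0.2 and 0.4, 44.5% between 0.4 and 0.6, 76.6% between 0.6 and 0.8 and 89.7% above 0.8. The median was 0.758 for promoters with a region and 0.220 for those without. By the entry nearest the start, Nkg7 and Cd8a lay in the class in which fewest promoters held a region, Runx3, Cd3e and Cd79a in the next, and Ptprc in the middle one. The Pax5 entry and the second entry of Runx3 had no region, in a class where 89.7% of promoters had one. Pax5 did have regions near other annotated starts, described below.

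**Figure D1:**
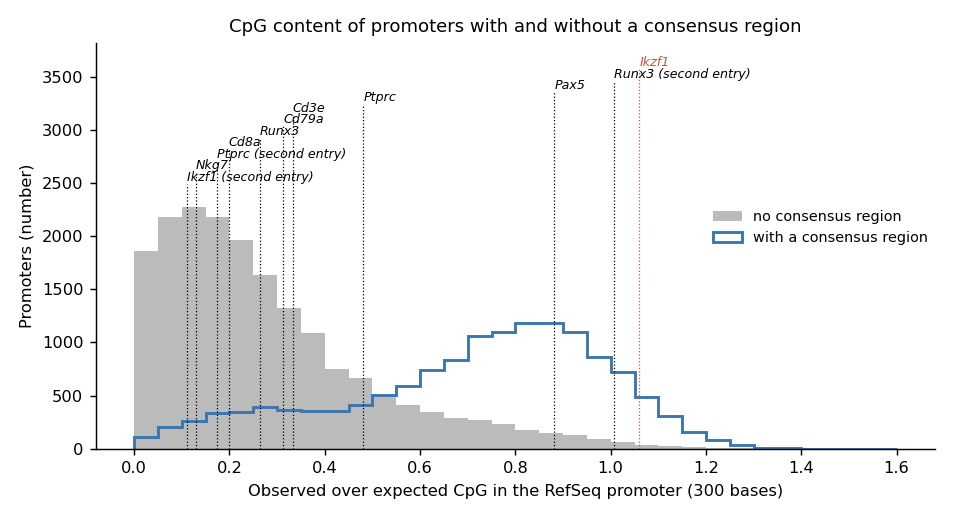
Number of RefSeq promoters (y axis) by observed over expected CpG (x axis), for promoters without (grey) and with (blue line) a consensus region. Dotted lines mark the 11 entries of 8 lymphocyte genes. The Ikzf1 entry in red, at 1.06, is the one with a region, Pax5 at 0.882 and the second Runx3 entry at 1.01 have none, and the others lie below 0.5.

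The 300 bases at the centre of 4 regions are given next, on the strand of the gene, because they are the strongest regions within or beside the genes that belong to no neighbour's promoter, with Cd79b as the last B cell gene. Capitals mark matches on either strand to TGTGGT (RUNX), GGAAGT (ETS), TGGGAA (Ikaros-type), CCCNNGGG (EBF1 core) and ATGCAAAT (the octamer of POU factors).
Cd79a, upstream region (chr7:24890521-24890820, plus strand): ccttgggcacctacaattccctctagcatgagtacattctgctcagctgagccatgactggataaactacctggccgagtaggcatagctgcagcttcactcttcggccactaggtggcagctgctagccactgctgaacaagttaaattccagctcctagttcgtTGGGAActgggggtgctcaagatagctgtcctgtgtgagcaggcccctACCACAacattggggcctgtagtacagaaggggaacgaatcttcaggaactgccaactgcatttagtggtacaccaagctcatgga
Cd79b, downstream region (chr11:106302841-106303140, minus strand): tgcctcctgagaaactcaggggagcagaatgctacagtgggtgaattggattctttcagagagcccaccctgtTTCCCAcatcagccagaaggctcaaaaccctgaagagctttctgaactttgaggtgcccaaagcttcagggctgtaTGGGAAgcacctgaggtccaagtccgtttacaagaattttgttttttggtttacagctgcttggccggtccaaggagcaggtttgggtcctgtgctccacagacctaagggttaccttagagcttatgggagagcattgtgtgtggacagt
Pax5, first intronic region (chr4:44704404-44704703, minus strand): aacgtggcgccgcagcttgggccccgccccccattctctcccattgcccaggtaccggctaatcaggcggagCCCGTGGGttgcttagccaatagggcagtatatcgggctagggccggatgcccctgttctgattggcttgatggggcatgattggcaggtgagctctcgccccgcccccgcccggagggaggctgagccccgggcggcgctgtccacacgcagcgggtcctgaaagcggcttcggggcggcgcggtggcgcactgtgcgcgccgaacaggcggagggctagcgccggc
Ikzf1, promoter region (chr11:11685825-11686124, plus strand): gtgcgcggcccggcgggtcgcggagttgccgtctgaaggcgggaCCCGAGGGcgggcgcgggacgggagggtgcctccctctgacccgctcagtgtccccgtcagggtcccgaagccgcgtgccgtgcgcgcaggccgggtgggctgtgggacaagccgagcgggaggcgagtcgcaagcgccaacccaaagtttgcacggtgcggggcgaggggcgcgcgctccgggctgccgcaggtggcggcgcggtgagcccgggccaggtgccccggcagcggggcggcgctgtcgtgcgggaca

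The Cd79a region carried 1 Ikaros-type and 1 RUNX match, and the Cd79b region 2 Ikaros-type matches. The Pax5 and Ikzf1 regions carried 1 EBF1 core match each. Over the central 300 bases of all 8 regions, Ikaros-type matches were in 4 (25.3% of all 55680 regions hold one), ETS matches in 2 (20.0%), EBF1 core matches in 2 (11.4%), a RUNX match in 1 (18.8%) and the octamer in 0 (1.28%). In the 8 RefSeq promoters nearest the annotated starts the corresponding numbers were 3, 3, 1, 2 and 0, against 25.6%, 23.8%, 13.7%, 16.8% and 1.74% of all promoters. No 2 matches in these regions overlapped. Short motifs are frequent in any sequence, and a match here describes the letters only.

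In the gene body or 10 kb on either side, 5 of the 9 genes (55.6%) had a region, against 73.9% of all protein-coding genes. Ptprc, Runx3, Cd3e and Cd8a had no region within 10 kb. In the window of Cd79a, the stronger of 2 regions sat on the promoter of a neighbouring gene, Arhgef1. The 1 region in the window of Nkg7 sat on the promoter of another neighbour, Etfb. The regions upstream of Cd79a and downstream of Cd79b overlap neither gene, and only their distance assigns them. Level was measured as CPM after TMM normalization, the usual depth-scaled count. Change with age was the log2 fold change (aged against young) of edgeR's quasi-likelihood test, with its standard error and a Benjamini-Hochberg adjusted p over all 55680 regions.

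**Figure D2:**
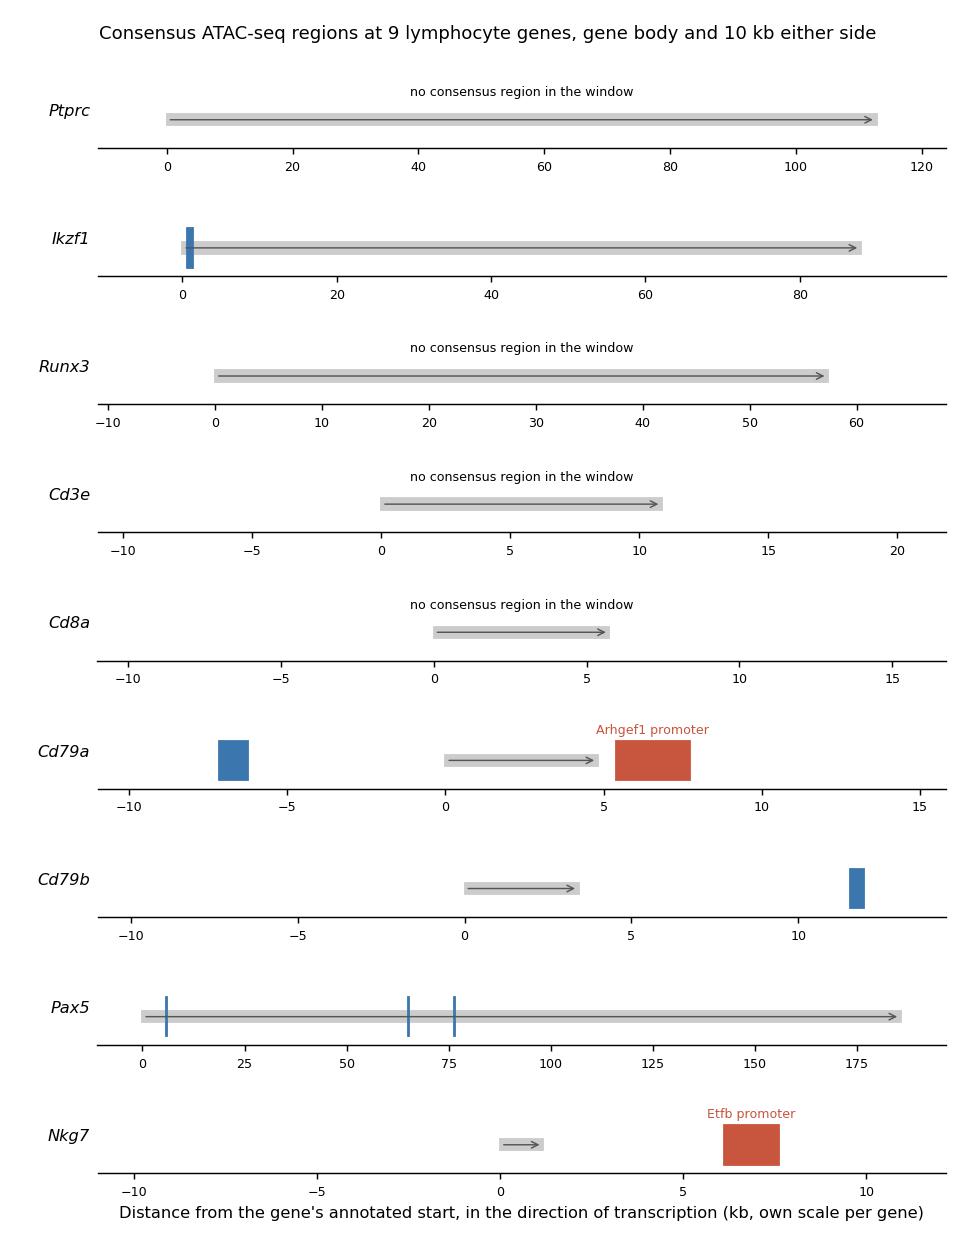
Position of the consensus regions (vertical boxes) along each gene body (grey bar, arrow in the direction of transcription), in kb from the annotated start, with a scale of its own for each gene. Blue regions are at no other gene's promoter, red ones cover the promoter of Arhgef1 or Etfb, and 4 of the 9 genes have none.

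Age separated 0 of the 8 regions at an adjusted p under 0.05, where 5.74% of all regions did (2.44% with aged liver higher and 3.3% with aged liver lower). At an unadjusted p under 0.05 there were 3 of 8, against 24.6% of all regions. DESeq2 and limma voom each called 1 of the 8, the region at the Arhgef1 promoter, as higher in aged liver, with 2 and 3 regions at an unadjusted p under 0.05. The libraries of the 2 ages did not overlap in 4 of the 8 regions, against 21.8% of all regions. In 2 of them aged liver was higher (10.2% of all regions) and in 2 it was lower (11.6%). The higher ones were the neighbours' promoters and the lower ones were Ikzf1 and the region upstream of Cd79a.

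Ikzf1 (chr11:11685003-11772926, plus strand) was the one gene with a consensus region at its promoter, of 694 bp at chr11:11685628-11686321 with a GC content of 75.8%. It held 63, 151 and 32 reads in young and 36, 15, 19 and 35 in aged libraries. These were 5.83, 5.71 and 5.26 CPM in young and 3.16, 2.94, 4.44 and 4.45 CPM in aged liver. Every aged library lay below every young one, and the young libraries lay close together. Means were 5.60 ± 0.30 CPM for young (SD, n = 3) and 3.75 ± 0.809 CPM for aged (SD, n = 4). The log2 fold change was -0.60 (SE 0.25), which did not pass the adjustment (edgeR adjusted p = 0.162). At this promoter the adjusted p ran from 0.0981 to 0.538 over 22 alternative analyses, and the fold change stayed below 0, between -0.72 and -0.35, the latter with offsets fitted on abundance. The level lay at the 28.4th percentile of all regions. A region beyond the 10 kb, 46.9 kb past the end of Ikzf1 (chr11:11819849-11820581, at no promoter), was added after the first results were seen. It fell from 6.22 ± 0.830 to 2.76 ± 0.671 CPM (SD, n = 3 and 4; log2 fold change -1.22, SE 0.26, edgeR adjusted p = 0.0212), and nothing in these files ties it to Ikzf1.

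Ptprc (chr1:138062861-138175708, minus strand), the other gene of nearly all lymphocytes, had no region in its window. The nearest lay 16.0 kb away at chr1:138191736-138192361, at the promoter of Gm28556. It measured 3.98, 3.40 and 3.95 CPM in young and 1.49, 1.18, 4.20 and 4.07 CPM in aged liver. Aged replicates 1 and 2 were low there, while replicates 3 and 4 were as high as young liver (log2 fold change -0.49, edgeR adjusted p = 0.465).

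None of the 3 genes of T cells and cytotoxic lymphocytes, Cd3e (chr9:44998740-45009627), Cd8a (chr6:71373427-71379173) and Runx3 (chr4:135120652-135177990), held a region. For Cd8a the nearest region was 11.5 kb away at chr6:71390661-71391054, with 2.59, 3.14 and 2.47 CPM in young and 2.72, 4.12, 1.17 and 1.91 CPM in aged liver, so that the ages overlapped. For Cd3e it was 19.9 kb away at chr9:45029493-45030731, where young libraries had 12.8 to 15.0 CPM and aged ones 10.4 to 15.9 CPM (log2 fold change -0.13, edgeR adjusted p = 0.703). For Runx3 it was 28.0 kb away at chr4:135206016-135206725, with 8.79, 7.52 and 5.92 CPM in young and 5.18, 4.12, 3.74 and 4.84 CPM in aged liver. There the aged libraries were all below the young ones (log2 fold change -0.72, SE 0.24, edgeR adjusted p = 0.082). A region absent from the consensus set is one in which fewer than 2 libraries had a peak or which was on the blacklist, so these 4 genes were not measured within 10 kb, which is not a level of 0.

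Of the B cell genes, Cd79a (chr7:24897381-24902197, plus strand) had no region in its body and 1 on each side. The upstream region, 6710 bp before the start (chr7:24890207-24891134), held 110, 229 and 93 reads in young and 94, 36, 31 and 45 in aged libraries. The levels were 10.2, 8.66 and 15.3 CPM in young and 8.26, 7.06, 7.24 and 5.73 CPM in aged liver. The ages did not overlap, but young replicate 3 stood high and the gap between the closest libraries of each age was small. The mean was 11.4 ± 3.48 CPM (SD, n = 3) against 7.07 ± 1.04 CPM (SD, n = 4). The log2 fold change of -0.65 (SE 0.23) missed the threshold (edgeR adjusted p = 0.110), and without young replicate 3 it was -0.39 (adjusted p = 0.328).

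The region after Cd79a (chr7:24902765-24905119) began 568 bp past the gene's end and covered the promoter of Arhgef1, a guanine exchange factor for RhoA. It was the strongest of the 8, at 68.7, 65.4 and 70.0 CPM in young and 79.8, 81.2, 87.8 and 98.6 CPM in aged liver. All aged libraries were higher, with means of 68.1 ± 2.37 CPM (SD, n = 3) and 86.8 ± 8.60 CPM (SD, n = 4). Its log2 fold change was 0.35 (SE 0.11, edgeR adjusted p = 0.0727) and had an adjusted p under 0.05 in 3 of 22 alternatives, but was 0.23 with total counts and 0.063 (adjusted p = 0.801) with offsets fitted on abundance. Per kilobase it measured 28.9 CPM in young liver, against 12.3 CPM per kilobase for the upstream region. Since it lies on another gene's promoter, it is no measure of Cd79a itself.

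Cd79b (chr11:106311341-106314762, minus strand) had 1 region, 8139 bp past its end in no gene (chr11:106302779-106303202). It measured 4.07, 2.87 and 2.80 CPM in young and 2.90, 3.14, 1.87 and 1.91 CPM in aged liver, from 8 to 76 reads a library. The ages overlapped and the log2 fold change was -0.39 (SE 0.31, edgeR adjusted p = 0.469). It was -0.19 without young replicate 1, -0.26 without aged replicate 4 and -0.057 with offsets on abundance.

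Pax5 (chr4:44524757-44710487, minus strand) held 3 regions, all in introns, of 259 to 353 bp. From the nearest annotated start of a Pax5 transcript, their centres lay at -547 bp (region at 5934 bp), 339 bp (65103 bp) and 11712 bp (76476 bp). The central 300 bases of the region at 5934 bp had a CpG observed over expected value of 0.819. The regions at 5934 and 65103 bp thus lay near other annotated starts of Pax5, though outside TSS ± 200 bp. The strongest (chr4:44704377-44704729), 5934 bp into the gene and shared with the transcript 5730488B01Rik, measured 4.91, 5.4 and 3.62 CPM in young and 3.16, 3.92, 3.50 and 4.84 CPM in aged liver. The ages overlapped (log2 fold change -0.30, SE 0.26, edgeR adjusted p = 0.515), and the value was -0.16 without young replicate 2, -0.20 without aged replicate 1, -0.16 after thinning and -0.046 with offsets on abundance. The region at 65103 bp (chr4:44645255-44645513) was the weakest of the 8, with 1.81 to 3.02 CPM in young and 1.40 to 2.90 CPM in aged liver (log2 fold change -0.20, SE 0.34, edgeR adjusted p = 0.757). Its direction turned without young replicate 2 (0.059) and with offsets on abundance (0.21), and it was -0.47 without aged replicate 1, -0.31 without young replicate 3 and -0.027 without aged replicate 4. The region at 76476 bp (chr4:44633837-44634185) was, with all libraries and TMM normalization, the only one of the 6 with no neighbour's promoter in which the fold change was above 0. It had 1.76, 2.42 and 3.95 CPM in young and 2.90, 4.12, 2.80 and 4.58 CPM in aged liver (log2 fold change 0.48, SE 0.33, edgeR adjusted p = 0.402). Its fold change was 0.26 without young replicate 1, 0.76 without young replicate 3, 0.13 after thinning to the smallest total and 0.78 (adjusted p = 0.276) with offsets on abundance. None of the 3 regions passed the test.

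Nkg7 (chr7:43437073-43438249, plus strand) had no region in its body or at its promoter. The region in its window (chr7:43443199-43444694), 4950 bp past the gene, lay on the promoter of Etfb, a subunit of the mitochondrial electron transfer flavoprotein, and within Cldnd2. It measured 42.5, 42.1 and 39.8 CPM in young and 46.4, 43.9, 46.2 and 47.9 CPM in aged liver. Aged libraries were all higher, by a log2 fold change of 0.15 (SE 0.11, edgeR adjusted p = 0.399), and this small difference changed sign with offsets fitted on abundance.

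**Figure D3:**
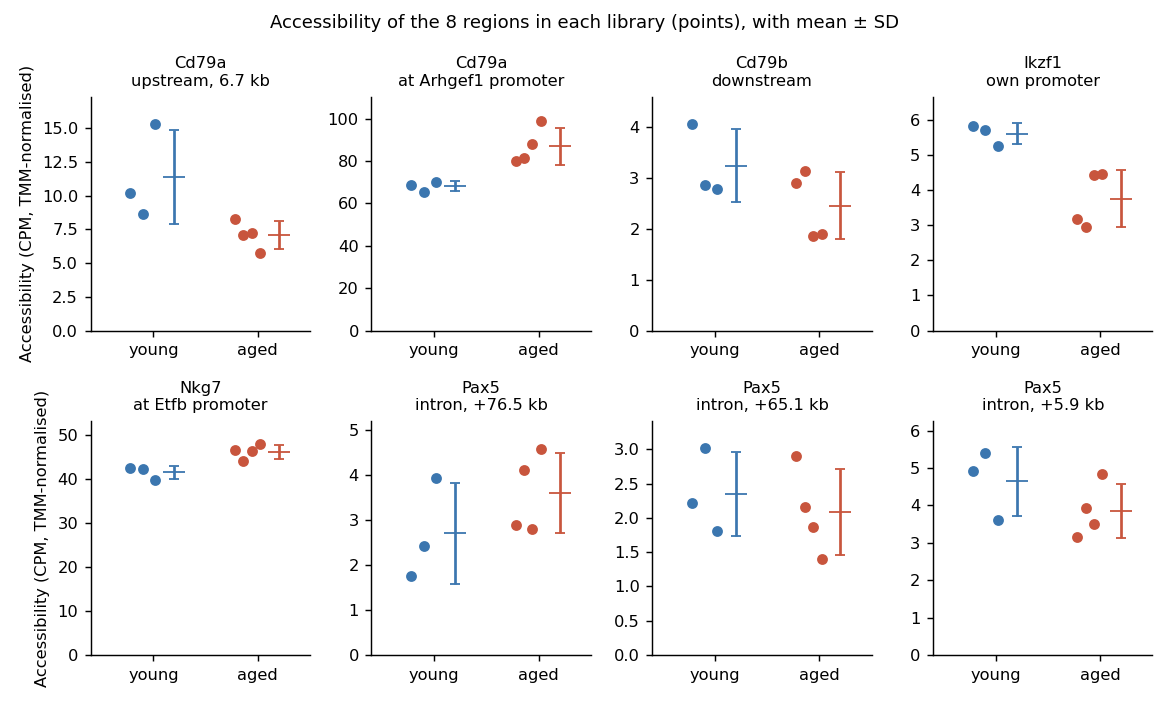
Accessibility (y axis, CPM after TMM normalization, from 0 and on a scale of its own in each panel) of the 8 regions in the 3 young (blue) and 4 aged (red) libraries, with mean ± SD beside the points. The ages are apart at Ikzf1, upstream of Cd79a and at the promoters of Arhgef1 and Etfb, and they overlap in the other 4 panels.

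Leaving aside the 2 neighbours' promoters, 5 of 6 regions had a fold change below 0, with a median of -0.34. The median over all 8 was -0.25. Over all 55680 regions the median was -0.035 and 46.6% lay above 0. The 6 regions together took 0.00292% to 0.00349% of each young library's counts and 0.00208% to 0.00233% of each aged library's, with no overlap. These are shares of raw counts, without the TMM scaling. They include Ikzf1 and the region upstream of Cd79a, already given as apart, with 151 and 229 of the 743 reads in young replicate 2. The sum is therefore no further evidence of a difference. Weak regions as a whole had lower values in the aged libraries, however. The median log2 fold change ran from -0.42 in the weakest decile of all regions to 0.28 in the strongest. TMM factors were 1.04 to 1.07 in young and 0.936 to 0.998 in aged libraries, and the cause of the trend was not tested. Ikzf1 and the first Pax5 region were in the third decile, with a median of -0.25, Cd79b and the last Pax5 region in the second (-0.29), the Pax5 region at 65103 bp in the weakest (-0.42), and the upstream region of Cd79a in the sixth (-0.071). The Arhgef1 promoter was in the strongest decile (0.28) and the Etfb promoter in the ninth (0.16). Offsets fitted on abundance, which remove this trend, moved the median of the 6 regions to -0.051, with 4 of 6 below 0.

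**Figure D4:**
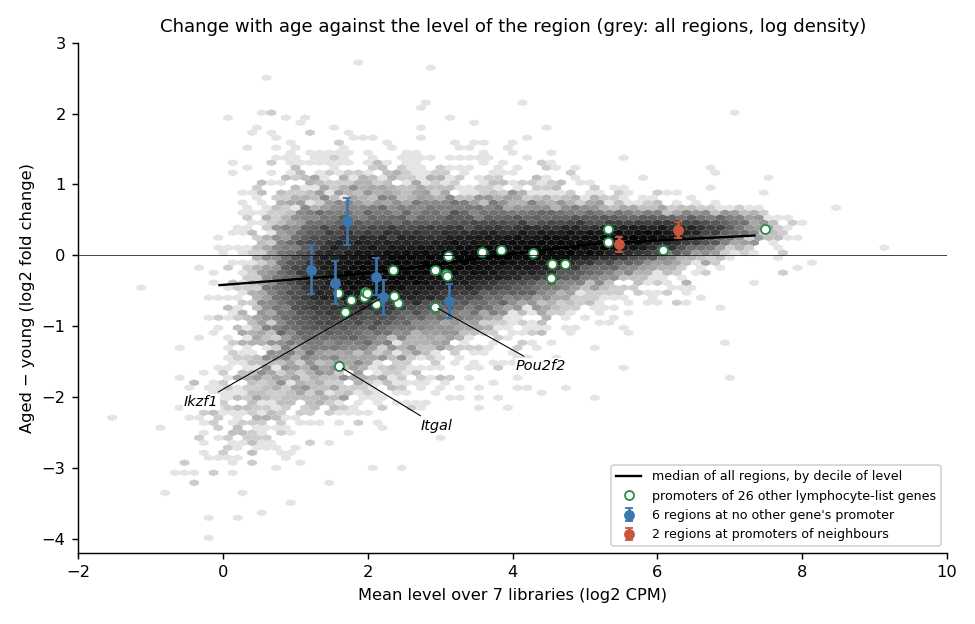
Log2 fold change, aged against young (y axis), against mean log2 CPM over the 7 libraries (x axis) for all 55680 regions (grey, darker where denser), with the median of each decile of level as a black line. Blue and red points with SE bars are the 8 regions and open green points the promoters of 26 other lymphocyte-list genes, among which Itgal at -1.57 lies farthest below the line.

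Other genes of lymphocytes were taken from 5 lists with 92 genes in all. Of these, 64 (69.6%) had a region in the gene body or 10 kb on either side, against 73.9% of 21951 protein-coding genes. At the promoter 26 (28.3%) had one, against 59.4% of protein-coding genes. The share was 11.1% of the 9 genes described here, 5.56% of NK and cytotoxic genes (1 of 18), 16.7% of T cell genes (4 of 24), 33.3% of plasma cell genes (2 of 6), 35% of B cell genes (7 of 20) and 50% of pan-leukocyte genes (12 of 24). Defining genes without a promoter region included Ms4a1 (CD20) of B cells, Cd4 and Zap70 of T cells, Gzmb and Prf1 of cytotoxic cells and Jchain of plasma cells. Other markers had one at the promoter, such as Cd22, Cr2, Cd37 and Blnk of B cells, Lck of T cells and Irf4 of plasma cells. All 12 hepatocyte genes had one, as did 8 of 10 sinusoidal endothelial genes, 5 of 9 stellate and 4 of 6 cholangiocyte genes. Of the other blood cells, 1 of 12 Kupffer and macrophage genes (Clec4f) and 1 of 8 neutrophil genes (Elane) did.

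**Figure D5:**
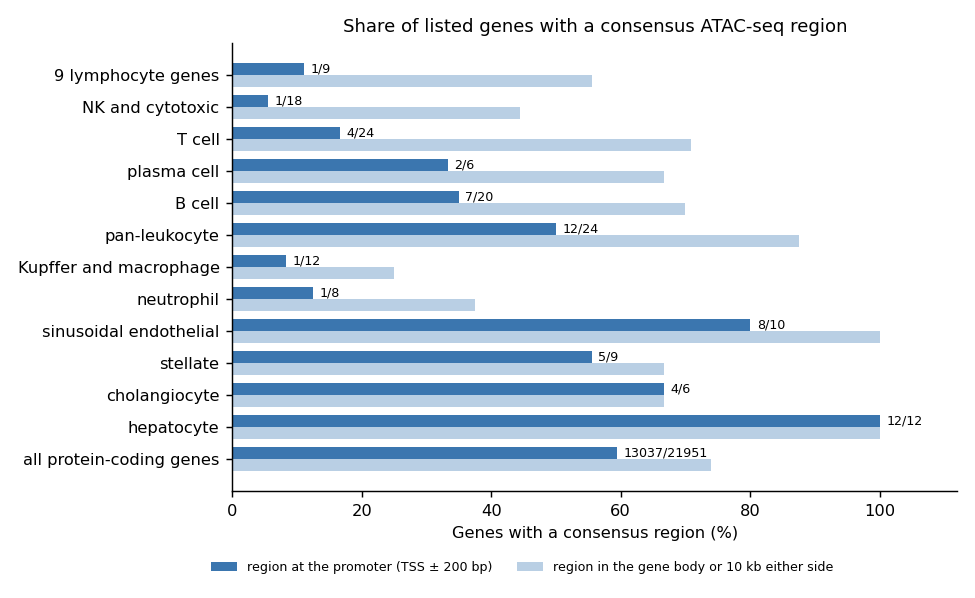
Share of the genes of each list (x axis, %) with a consensus region at the promoter (dark bars, with the number of genes) or anywhere in the gene body or 10 kb on either side (light bars). Lymphocyte lists range from 5.56% to 50% at the promoter, against 100% for hepatocyte genes and 59.4% for all protein-coding genes.

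Of the 26 lymphocyte-list genes with a promoter region, 0 rose and 2 fell at an adjusted p under 0.05, where 4.48% of all promoter regions rose and 2.06% fell. Fold changes were below 0 in 19 of 26, with a median of -0.28, while the median of all promoter regions was 0.094. The median was -0.42 over the 12 pan-leukocyte genes, which include genes shared with myeloid cells such as Spi1 and Tyrobp, -0.21 over the 7 B cell genes, -0.13 over the 4 T cell genes and -0.23 over the 2 plasma cell genes, while the 1 NK and cytotoxic gene, Id2, had a value of 0.37. The ages did not overlap in 8 of the 26, against 29.3% of all promoter regions. Aged liver was lower in 6 (8.88% of promoter regions) and higher in 2 (20.4%). These promoter values are not matched for level. Median level percentiles were 40.6 for pan-leukocyte, 45.5 for B cell, 43.9 for plasma cell and 68.3 for T cell genes. Over all regions the median was -0.14 in the fifth decile and 0.0029 in the seventh. In the fifth decile 793 of 5568 regions were lower without overlap and 181 higher. Over 22 alternatives the number of the 26 that fell was 0 to 2, the number that rose 0 to 2 and the median -0.40 to -0.19. None was called with offsets on abundance, where the median was -0.21 and 20 of 26 were below 0, with the minimum of 10 counts (21 genes tested), or without young replicate 1, young replicate 2 or aged replicate 1.

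Itgal, the integrin chain of LFA-1 with which leukocytes adhere, fell in the pan-leukocyte list. Its promoter region (chr7:127296582-127297473) measured 6.76, 4.91 and 4.11 CPM in young and 1.49, 1.57, 2.33 and 1.91 CPM in aged liver. These came from 73, 130 and 25 reads in young and 17, 8, 10 and 15 in aged libraries. The level was weak, at the 13.4th percentile of all regions. All aged libraries were well below all young ones (log2 fold change -1.57, SE 0.30, edgeR adjusted p = 0.0141). The minimum of 10 counts in every sample removed it from the test. In the other 21 alternatives it kept an adjusted p under 0.05 in 17. It lost it with offsets on abundance (0.0583), without young replicate 1 (0.0755), without young replicate 2 (0.0538) and without aged replicate 1 (0.0566). The fold change ran from -1.71 to -1.25 over these alternatives.

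Pou2f2 (Oct-2), a POU factor of B cells that binds the octamer, fell in the B cell list. Its region (chr7:25132534-25133663) measured 9.90, 9.45 and 10.2 CPM in young and 5.71, 5.69, 6.77 and 5.73 CPM in aged liver, with no overlap (log2 fold change -0.73, SE 0.20, edgeR adjusted p = 0.0452). The call stood in 6 of 22 alternatives, with adjusted p from 0.0263 to 0.163, and was lost when any 1 of the 7 libraries was left out (0.0529 to 0.143), with fold changes of -0.78 to -0.69.

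In the other lists no gene passed. Satb1, a chromatin organizer of T cells, averaged 6.73 ± 1.81 CPM in the 3 young and 4.25 ± 0.158 CPM in the 4 aged libraries (SD; log2 fold change -0.68, edgeR adjusted p = 0.108). Tcf7, a factor of early T cells, averaged 24.3 ± 2.00 and 22.3 ± 1.66 CPM (SD; log2 fold change -0.13, adjusted p = 0.591). Id2, which opposes E proteins in NK cells and is also used by many other cells, was the one cytotoxic-list gene with a region at its promoter. It was far stronger than the rest, at 154 ± 13.6 CPM in young and 200.2 ± 8.40 CPM in aged liver (SD; log2 fold change 0.37, SE 0.11, adjusted p = 0.0557). Of the plasma cell genes, Irf4 differed by -0.53 on the log2 scale (adjusted p = 0.287) and Prdm1 by 0.076 (adjusted p = 0.853).

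Markers of the other liver cells gave the frame for these levels. The summed promoter level of the 12 hepatocyte genes was 829 to 976 CPM in young and 1015 to 1232 CPM in aged liver, with no overlap. Of them 11 had a fold change above 0 (median 0.30) and 2, Ahsg and Apoa1, passed the test, where 4.48% of all promoter regions rose. These promoters were strong, at a median level percentile of 96.9, and in the strongest decile of all regions the median was 0.28, with 5225 of 5568 regions above 0. The 5 stellate genes with a region summed to 35.2 to 40.6 CPM in young and 21.8 to 35.3 CPM in aged liver, and the 8 endothelial genes to 89.9 to 110 CPM and 76.1 to 125 CPM. Their medians were below 0, as in 4 of the 5 lymphocyte lists, at -0.23 for stellate genes (3 of 5 below 0) and -0.25 for endothelial genes (6 of 8 below 0). Clec4f of Kupffer cells had a log2 fold change of -0.66, Elane of neutrophils one of -0.28 and the 4 cholangiocyte genes a median of -0.042, and no gene of these 5 lists passed the test. The B cell genes summed to 97 to 118 CPM and 94.7 to 107 CPM, the T cell genes to 66.8 to 73.8 CPM and 61.9 to 64.8 CPM, the pan-leukocyte genes to 159 to 178 CPM and 150 to 173 CPM and the plasma cell genes to 16.1 to 20.1 CPM and 15.3 to 20.4 CPM. Only the T cell sum was apart between the ages among the lymphocyte lists with more than 1 gene. Most of the B cell sum came from 1 strong promoter, that of Bach2, a repressor that restrains plasma cell formation, with a mean of 66.0 CPM in young and 68.8 CPM in aged liver. The part of hepatocyte and other cell signal in the lymphocyte results was not tested.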

How the data were processed

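Liver ATAC-seq was deposited as 1 table of raw counts for 55680 regions and 7 libraries. The authors trimmed reads (cutadapt 1.13), aligned them to GRCm38 (Bowtie2 2.4.1), removed low-quality, duplicate and mitochondrial reads, called peaks by library (MACS2 2.2.7) and counted reads, not insertion sites, in consensus regions (featureCounts), without normalization. Columns were matched to samples by the name in each sample's description, with 0 columns left over. Totals ran from 4474652 to 25461110, which sets the counting error of weak regions. Within an age, pairs of libraries differed by 2.38 to 6.06 chi-square per degree of freedom, above sampling noise.

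Age was tested over all regions with edgeR 4.0.16 (R 4.3.3; TMM, quasi-likelihood, age as the only factor, no filter; Benjamini-Hochberg, 0.05). The standard error was the log2 fold change over the square root of F. Values by sample were CPM, and log2 CPM with a prior count of 2. The fit was tested on simulated data. Alternatives were DESeq2 1.42.0, limma voom 3.58.1, total counts, loess offsets (span 0.3) on abundance and GC content, a minimum of 10 counts in every sample, filterByExpr, thinning, leaving out each sample, summing each of 6 aged pairs, a replicate block, a threshold of 0.01 and other windows. Named were all 9 genes with their regions, and from each lymphocyte list the genes that passed or, with none, the 2 with the smallest adjusted p. Genes and lists were chosen with earlier results of these data known. Sequences came from GRCm38 and RefSeq (GRCm38.p6).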

Additional observations from a re-analysis of the deposited data

Results flagged for a closer look

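Of 19 aged groups of 4 libraries checked for a library apart from the rest, 1 had one. At the Pou2f2 promoter, aged replicate 3 measured 2.80 log2 CPM and the other aged libraries 2.56 to 2.57, a gap of 0.96 of the group's range, beyond the 95% critical value for 4 values. Young libraries were at 3.27 to 3.38, above all of them. Chance flags about 1 in 20 such groups.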

How the results depend on the processing

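The number of the 8 regions that increased was 0, and 1 with DESeq2, with GC offsets and with voom, each time the Arhgef1 promoter (log2 fold changes of 0.39, 0.40 and 0.36, against 0.063 with offsets on abundance). The number that decreased was 0, and 2 of 35 regions with 50 kb on either side, a window chosen after seeing the data (0 increased; 13 at an unadjusted p under 0.05; over all regions 3.3% decreased and 24.6% had an unadjusted p under 0.05). The median log2 fold change of -0.25 moved to -0.046 with offsets on abundance and ran from -0.35 to -0.053 when 1 library was left out, the latter without young replicate 2. With offsets on abundance the Etfb promoter beside Nkg7 changed sign to -0.046 and the Pax5 region at 65103 bp to 0.21. That Pax5 region ran from -0.47 to 0.059 when 1 library was left out, again above 0 without young replicate 2. The cause was not tested. A minimum of 10 counts in every sample left 6 regions and removed those of Cd79b and Pax5 at 65103 bp. With a replicate block the counts stayed at 0 and the median was -0.15. Same-numbered samples had correlations of deviations of -0.12, 0.056 and 0.030, so the numbers do not pair the samples. Depth limits the weak regions, with as few as 8 reads in a library.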

Other observations

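Of 13708 promoter regions of protein-coding genes outside these windows, the 5 whose log2 CPM over the 7 libraries was most like that of the Ikzf1 promoter were Hic1 (Pearson r = 0.983), Nrarp (0.981), Tfeb (0.981), Map10 (0.980) and Kcp (0.975). These are the highest of many values over the same 7 libraries, which share depth, scaling and age, so that a difference between the ages like that of Ikzf1 is part of what chose them, and are given as a description. Their log2 fold changes with age were -0.48, -0.59, -0.70, -1.24 and -0.76, and that of Ikzf1 was -0.60. The edgeR adjusted p was 0.0497 for Map10 and 0.0742 to 0.131 for the other 4, where 2.06% of all promoter regions fell.

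In the window of 50 kb on either side, all 9 genes had a region. The second of the 2 decreased regions lay 14.5 kb from Nkg7 at a further promoter of Etfb (chr7:43452793-43454331). It measured 13.5, 16.0 and 12.8 CPM in young and 7.82, 6.67, 7.47 and 8.02 CPM in aged liver (log2 fold change -0.92, SE 0.18, edgeR adjusted p = 0.0156). The stronger Etfb promoter region in the window of Nkg7, with means of 41.5 ± 1.47 CPM for young (SD, n = 3) and 46.1 ± 1.62 CPM for aged (SD, n = 4), had a fold change above 0.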
